A study of Mus musculus with 9 samples.

Results

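The Bcl2 family decides whether a cell opens its mitochondria and dies. The genes described here are 10 members of this family, taken as the rows of the 9 deposited matrices whose symbol was Mcl1, Bcl2, Bcl2l1, Bax, Bak1, Bcl2l11, Bbc3, Pmaip1, Bid or Bad. All 10 were found among the 31053 features, and all 10 were among the 19517 genes seen in at least 3 barcodes.

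The survival proteins MCL1, BCL2 and BCL-XL (encoded by Bcl2l1) hold back the effectors BAX and BAK (encoded by Bak1), which form the pores of the outer mitochondrial membrane. The BH3-only proteins BIM (Bcl2l11), PUMA (Bbc3), NOXA (Pmaip1), BID and BAD carry death signals to the survival proteins or directly to the effectors. Blood stem cells are known to need MCL1, and lymphoid progenitors are known to be limited by BIM when cytokine support is short.

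The study asked what a short course of CASIN, an inhibitor of the activity of the small GTPase Cdc42, does to the blood stem cells of aged mice. Bone marrow cells sorted as lineage-negative, c-Kit-positive and Sca-1-positive (LSK cells) were profiled by droplet single-cell RNA sequencing, 1 library per sample, from cells that had been viably frozen and thawed. All mice were C57BL/6. Young mice were 10 to 12 weeks old, aged mice were over 80 weeks old, and the CASIN mice were aged mice injected intraperitoneally with 25 mg/kg every 24 h, 4 times in all, with harvest on day 5. Young and aged controls, like the CASIN mice, received cyclodextrin, the vehicle. Batch 1, as the labels name the sequencing batches, held young 1, young 2, aged 1, CASIN 1 and CASIN 2. Batch 2 held young 3, aged 2, aged 3 and CASIN 3. Within a batch, only CASIN against young in batch 1 had 2 samples in both groups.

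The 9 libraries held 19237354 to 42780953 UMIs (unique molecular identifiers, counted molecules). After the study's limits were applied, 15856 cells of 32387 barcodes were kept, 73.8% of the barcodes in batch 1 and 34.4% in batch 2, and 318 barcode sequences occurred in more than 1 library (54 among the kept cells). Barcodes over the limit of 10% mitochondrial UMIs but within the study's other limits numbered 879 in batch 1 and 11795 in batch 2. The sort markers Kit (112 to 225 CPM) and Ly6a, which encodes Sca-1 (87.9 to 186 CPM), were found in every library. CPM are UMIs per 1000000 UMIs summed over the cells of a sample, so they measure a level per molecule counted. Neutrophil markers summed to 401 CPM in aged 3 and to at most 88.7 CPM in the other libraries. A sum over all LSK cells mixes subsets, and fewer cells of a type and less RNA per cell cannot be told apart in it. The HSC-1-like cells, for example, numbered 111 to 118 in the young samples, 183 to 215 in the aged samples and 149 to 407 in the CASIN samples.

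Promoter windows are shown first for Bcl2l11 and Bbc3, the members with a FOXO motif match, and for Mcl1, the survival gene that differed between aged and young. Among the 15 RefSeq promoter windows matched for 9 members, each holding the 250 bases before a start site (build GRCm38.p6), the FOXO motif GTAAACA, searched on both strands, was found in 2, a window of Bcl2l11 and a window of Bbc3. The motif was found in 1040 of all 32851 promoter windows (3.17%). No FOXO match was found in the windows of Mcl1, Bcl2, Bcl2l1, Bax, Bak1, Bid or Bad, and Pmaip1 had no window. Levels of all 10 members, with or without a match, differed between the batches in all LSK cells, beside 71.8% of all genes. Whether the motif goes with the levels was not tested. Of the 3 other motifs searched, also on both strands, the CRE motif TGACGTCA (1.55% of all windows) and the AP-1 motif TGANTCA (6.75%) were in none of the 15 windows, and the GC box GGGCGG (32.7%) was in 10. FOXO factors are known activators of Bcl2l11 and Bbc3 in cells deprived of cytokines, and all 4 motifs were chosen after the levels had been seen. The capitals mark the match, which is a description of the letters only. The Bcl2l11 window is chr2:128125788-128126037 on the plus strand, the Bbc3 window is chr7:16310011-16310260 on the plus strand with the motif read on the reverse strand, and the Mcl1 window, which holds no match, is chr3:95658471-95658720 on the plus strand.
Bcl2l11: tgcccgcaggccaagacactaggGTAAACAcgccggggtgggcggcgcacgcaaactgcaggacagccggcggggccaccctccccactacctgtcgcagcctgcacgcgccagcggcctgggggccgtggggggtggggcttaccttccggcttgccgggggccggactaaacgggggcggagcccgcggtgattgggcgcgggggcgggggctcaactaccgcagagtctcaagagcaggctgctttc
Bbc3: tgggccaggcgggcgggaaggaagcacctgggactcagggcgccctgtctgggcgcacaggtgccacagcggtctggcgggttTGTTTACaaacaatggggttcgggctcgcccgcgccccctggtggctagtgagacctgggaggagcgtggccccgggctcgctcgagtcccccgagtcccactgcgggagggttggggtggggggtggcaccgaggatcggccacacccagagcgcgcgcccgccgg
Mcl1: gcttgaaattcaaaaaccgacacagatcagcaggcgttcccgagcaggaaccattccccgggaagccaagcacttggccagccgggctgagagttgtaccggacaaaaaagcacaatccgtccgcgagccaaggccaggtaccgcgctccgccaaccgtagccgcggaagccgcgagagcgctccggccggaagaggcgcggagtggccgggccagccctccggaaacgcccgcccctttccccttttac

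Mcl1 was the member that was higher in aged than in young LSK cells. In all LSK cells the levels of Mcl1 were 373, 389 and 311 CPM in young 1, 2 and 3, and 529, 489.6 and 434 CPM in aged 1, 2 and 3. All 3 aged samples lay above all 3 young samples, also within each batch. Mcl1 rose by a log2 fold change of 0.55 (SE 0.089, n = 3 samples per group, adjusted p = 0.016, edgeR quasi-likelihood test with the batch as a term and Benjamini-Hochberg adjustment over all 13642 genes tested), with 0.48 in batch 1 and 0.59 in batch 2. The call was lost without young 1 (log2 fold change 0.53, adjusted p = 0.072), without young 2 (0.57, adjusted p = 0.063), and when only the aged and young samples were fitted (0.54, adjusted p = 0.053). Mcl1 was 1 of 10 members called in this comparison, beside 4.1% of all genes called in either direction and 3.59% called higher.

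The remaining survival genes did not pass the test in all LSK cells. Bcl2 stood at 45.5, 52.8 and 31.5 CPM in the young samples and at 53.4, 43.2 and 31.1 CPM in the aged samples, which overlapped (log2 fold change 0.22, SE 0.14). Bcl2l1 was low throughout, at 5.97 to 10.95 CPM in young and 8.28 to 9.61 CPM in aged samples.

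Neither effector passed the test between aged and young. Bax ranged from 66.6 to 114 CPM in young and from 69.5 to 115 CPM in aged samples, and Bak1 from 27.0 to 41.2 CPM in young and from 29.99 to 30.7 CPM in aged samples. The spread of Bax within each group followed the batches, with 104 to 115 CPM in the 5 samples of batch 1 over all groups and 66.6 to 70.7 CPM in the 4 samples of batch 2.

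None of the 5 BH3-only genes passed the test either, although their levels spanned the widest ranges. Bcl2l11 was at 31.9, 39.6 and 452 CPM in young 1, 2 and 3 and at 20.9, 481 and 509 CPM in aged 1, 2 and 3. The high samples were those of batch 2 in both groups, so the groups overlapped, and the log2 fold change was -0.77 within batch 1 and 0.15 within batch 2. Bbc3 was at 19.6, 22.7 and 70.6 CPM in young and at 15.8, 50.2 and 69.9 CPM in aged samples (log2 fold change -0.34, SE 0.14, adjusted p = 0.20, edgeR). Pmaip1, Bid and Bad had log2 fold changes of -0.13, -0.17 and 0.01.

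CASIN samples were compared with both controls, and the 2 comparisons share the CASIN samples. Against aged samples, no member was called in all LSK cells by edgeR or by DESeq2, and 1 of 10 (Mcl1) had an unadjusted p under 0.05. Mcl1 was at 478, 412 and 340.5 CPM in CASIN 1, 2 and 3. Within batch 1 both CASIN samples lay below aged 1, and within batch 2 CASIN 3 lay below both aged samples, but over the batches the groups overlapped. The log2 fold change was -0.37 (SE 0.089, unadjusted p = 0.0021, adjusted p = 0.99 by edgeR), with -0.28 in batch 1 and -0.46 in batch 2. Of all 13642 genes, 0% were called in this comparison by edgeR, and 439 had an unadjusted p under 0.05.

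Against young samples, no member passed the test in all LSK cells with edgeR or DESeq2, beside 4.27% of all genes called, and 1 of 10 (Bcl2l11) had an unadjusted p under 0.05. Of all 13642 genes tested in this comparison by edgeR, 3273 had an unadjusted p under 0.05. Bcl2l11 was at 22.3, 27.9 and 342 CPM in CASIN 1, 2 and 3, below every young sample of the same batch (log2 fold change -0.50, SE 0.19, adjusted p = 0.15, edgeR). It was called in this comparison without aged 1 and when only the CASIN and young samples were fitted, and Bak1 was called without young 3. The share of all genes called in those fits is not given here. Mcl1 had a log2 fold change of 0.18 (SE 0.085, adjusted p = 0.24) over young.

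**Figure D1:**
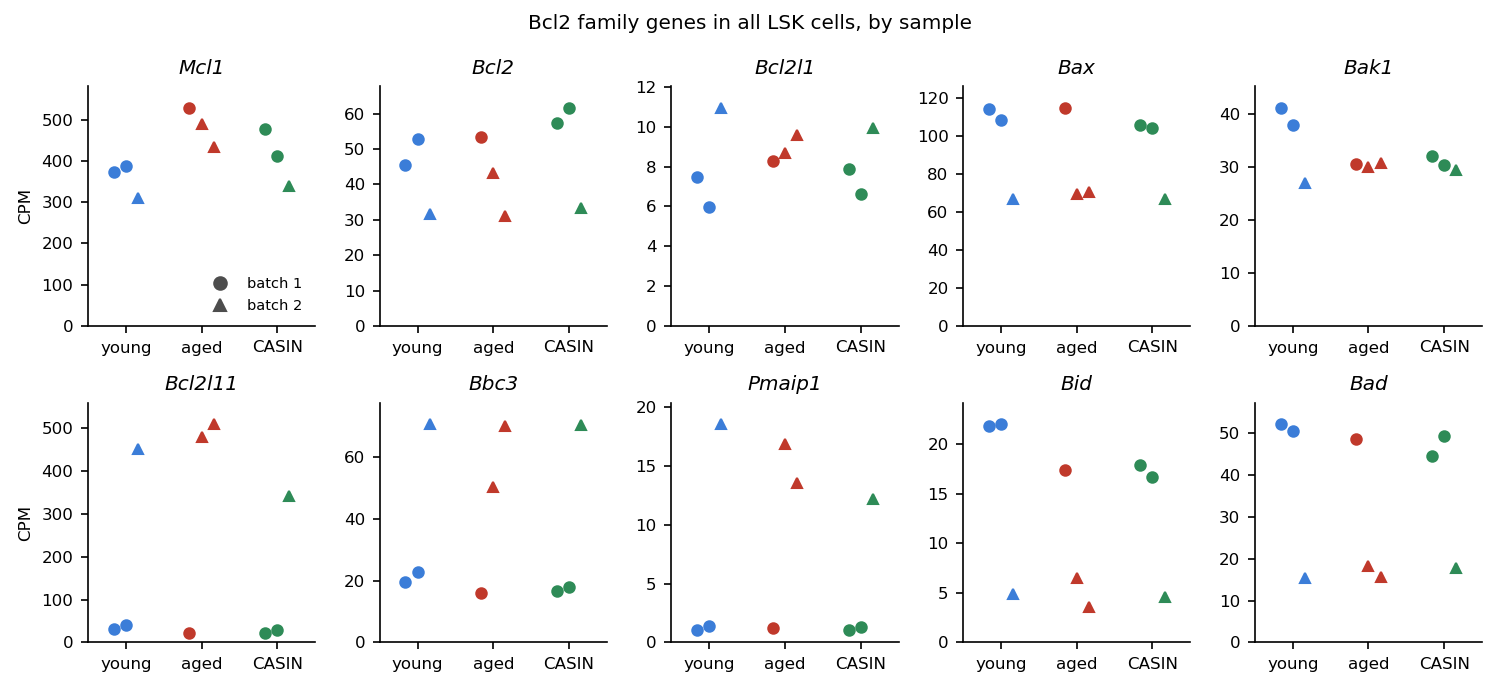
Level of each of the 10 genes in all LSK cells (y axis, CPM, linear from 0) by group (x axis), 1 point per sample, with circles for batch 1 and triangles for batch 2. The 3 aged samples of Mcl1 (434 to 529 CPM) sit above the 3 young samples (311 to 389 CPM), and the 4 batch 2 samples of Bcl2l11 (342 to 509 CPM) sit far above the 5 batch 1 samples (20.9 to 39.6 CPM).

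In the HSC-1-like cells, the cluster that carried the markers of the study's HSC-1 cells (Vwf, Sult1a1, Nupr1 and others) and held 1729 cells, the survival gene that passed the test was Bcl2. Its levels were 25.6, 33.6 and 29.7 CPM in young 1, 2 and 3, 50.02, 35.7 and 48.0 CPM in aged 1, 2 and 3, and 46.7, 54.9 and 48.5 CPM in CASIN 1, 2 and 3. All aged and all CASIN samples lay above all young samples. Bcl2 rose by a log2 fold change of 0.68 in aged over young (SE 0.19, adjusted p = 0.046, edgeR), and by 0.82 in CASIN over young (SE 0.17, adjusted p = 0.0060, edgeR). These 2 comparisons share the young samples. Within batches the values were 0.82 and 0.54 for aged over young and 0.82 and 0.81 for CASIN over young.

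Bcl2 was 1 of the 9 members tested in HSC-1-like cells that were called in aged over young, beside 4.11% of all genes, and 1 of 9 in CASIN over young, beside 6.04% of all genes. Pmaip1 did not pass the filter on low counts there (at most 5.78 CPM in any sample). The aged over young call of Bcl2 sat at the threshold: it was lost in 7 of the 9 fits that left out a sample and kept without aged 2 or CASIN 1, and DESeq2 gave an adjusted p of 0.20. The CASIN over young call was lost without young 1 (log2 fold change 0.67, adjusted p = 0.077) and with a mitochondrial limit of 5% (0.75, adjusted p = 0.073).

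Mcl1 in HSC-1-like cells fell just outside the threshold. It was at 531, 533 and 282 CPM in the young samples, 628, 383 and 344 CPM in the aged samples, and 622, 565 and 304 CPM in the CASIN samples. Within each batch the aged samples lay above the young ones, but the young samples of batch 1 lay above the aged samples of batch 2. Aged over young gave a log2 fold change of 0.37 (SE 0.11, adjusted p = 0.054, edgeR). In 2 broader versions of the cluster, at resolution 0.8 and with the family genes left in the clustering, both Mcl1 and Bcl2 were called in aged over young.

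Bcl2l1, which is known for its part in the survival of megakaryocytes and red cell precursors, did not pass in HSC-1-like cells, with a log2 fold change of -0.44 (SE 0.25) in aged and -0.58 (SE 0.24) in CASIN over young. Bbc3 was at 19.0, 27.3 and 86.7 CPM in the young, 14.7, 47.5 and 69.3 CPM in the aged and 15.1, 18.8 and 58.1 CPM in the CASIN samples. Every aged and CASIN sample lay below every young sample of its batch, but the differences did not pass the test (log2 fold changes -0.53, adjusted p = 0.15, and -0.44, adjusted p = 0.21, edgeR). Bax, Bak1, Bcl2l11, Bid and Bad had log2 fold changes of -0.11 to 0.20 in aged over young.

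No member was called in HSC-1-like cells in CASIN over aged by edgeR or DESeq2, and none had an unadjusted p under 0.05. Of all 10325 genes tested there, 0% were called by edgeR, and 348 had an unadjusted p under 0.05.

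In the LMPP-like cells, the 3345 cells with the markers of lymphoid-primed multipotent progenitors (Dntt, Ccl3, Wfdc17 and others), no member was called in any of the 3 comparisons by edgeR or DESeq2. The share of all genes called there was 0.251% in aged over young, 0.116% in CASIN over young and 0% in CASIN over aged. Mcl1 was at 386, 433 and 332 CPM in the young samples, 434, 539.5 and 523 CPM in the aged samples and 383, 375 and 416 CPM in the CASIN samples. The 3 aged samples lay above the young ones, aged 1 by less than 1 CPM (log2 fold change 0.40, SE 0.13, unadjusted p = 0.0083, adjusted p = 0.32, edgeR). Mcl1 was also the only member with an unadjusted p under 0.05 in CASIN over aged there (log2 fold change -0.35, SE 0.13), and no member had one in CASIN over young. Of all 11164 genes tested there by edgeR, 1059 had one in aged over young, 562 in CASIN over aged and 678 in CASIN over young.

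**Figure D2:**
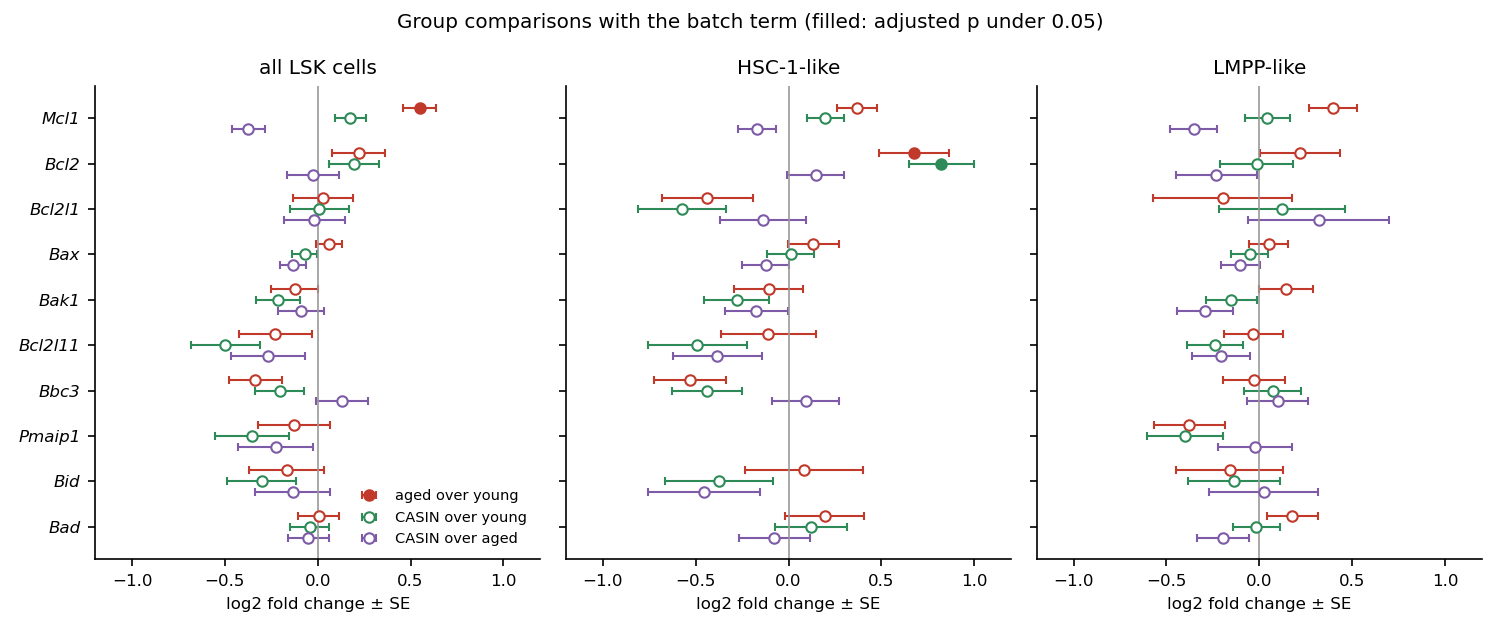
Log2 fold changes with their standard errors (x axis) of the 10 genes (y axis) in all LSK, HSC-1-like and LMPP-like cells, with 3 comparisons per gene by colour; a filled point has an adjusted p under 0.05. The filled points are Mcl1 in aged over young (0.55, all LSK cells) and Bcl2 in aged over young (0.68) and CASIN over young (0.82) in HSC-1-like cells.

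Whether an aged over young effect differed between HSC-1-like and LMPP-like cells was tested directly. By the edgeR interaction test, none of the 10 members was called, beside 0.0258% of all genes. None had an unadjusted p under 0.05, beside 913 of all 11646 genes tested. The estimate for Bcl2 was 0.77 higher in HSC-1-like cells on the log2 scale (SE 0.40, adjusted p = 0.66). With a term that let the batches differ by cell class, again no member was called, beside 1.97% of all genes, and Bbc3 had the lowest unadjusted p (log2 difference -0.56, SE 0.20, unadjusted p = 0.0096, adjusted p = 0.20). In simulated data the interaction test without that term recovered none of the genes changed by a log2 difference of 0.5 or 1 and 63.6% of those changed by 2. The simulation put batch differences between the classes into both the means and the spread, so it can understate the recovery. It therefore does not settle whether differences of the size seen here were detectable. The fit with the term was not simulated.

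In the 7 other clusters with at least 20 cells in every sample, Mcl1 was the only member called, and only in aged over young. Bcl2 was not called in HSC-3-like cells, although its highest estimate against young there was above those in HSC-1-like cells. The rise of Bcl2 is thus not shown to be particular to HSC-1-like cells. In cluster 0, the biggest cluster and one that was not named (leading gene Ctla2a), Mcl1 was at 400.3, 445 and 309 CPM in young 1, 2 and 3 and at 579, 452 and 392.5 CPM in aged 1, 2 and 3. Aged samples lay above young samples within each batch, and aged 3 lay below young 1 and young 2. The log2 fold change was 0.53 (SE 0.10, adjusted p = 0.024, edgeR), beside 2.98% of all genes called in cluster 0.

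In MPP2-like cells, which carry the megakaryocyte-lineage genes Pf4 and Itga2b, Mcl1 was at 308, 340.0 and 291 CPM in the young samples, 461, 445 and 420.5 CPM in the aged samples, and 390.1, 309 and 289 CPM in the CASIN samples. The aged samples lay above all young and all CASIN samples. Aged over young gave a log2 fold change of 0.54 (SE 0.12, adjusted p = 0.035, edgeR), beside 1.36% of all genes called. The call in MPP2-like cells was kept only without young 3 or CASIN 2, and the call in cluster 0 was lost without young 1, young 2 or aged 1. In the other clusters the log2 fold change of Mcl1 in aged over young ran from 0.30 (cluster 8) to 0.55 (HSC-3-like, adjusted p = 0.078). The shares of all genes called in aged over young there were 1.66% (HSC-3-like), 0.628% (MPP1-like), 0.246% (CC-1-like), 0.234% (CC-2-like) and 0.0657% (cluster 8). No member was called in these 7 clusters in CASIN over young by edgeR, beside 3.8% of all genes in cluster 0, 1.68% in HSC-3-like, 0.954% in MPP2-like, 0.438% in MPP1-like, 0.117% in CC-2-like, 0.0986% in cluster 8 and 0.0921% in CC-1-like cells. No member was called there in CASIN over aged, beside 0% of all genes in each of the 7. Leaving out aged 1 left no aged sample in batch 1. In those fits 3 calls appeared in CASIN over aged, namely Bcl2l11 in cluster 0 and in HSC-3-like cells and Mcl1 in CC-2-like (cycling) cells. The share of all genes called in those fits is not given here, so the 3 calls are not read as a result.

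**Figure D3:**
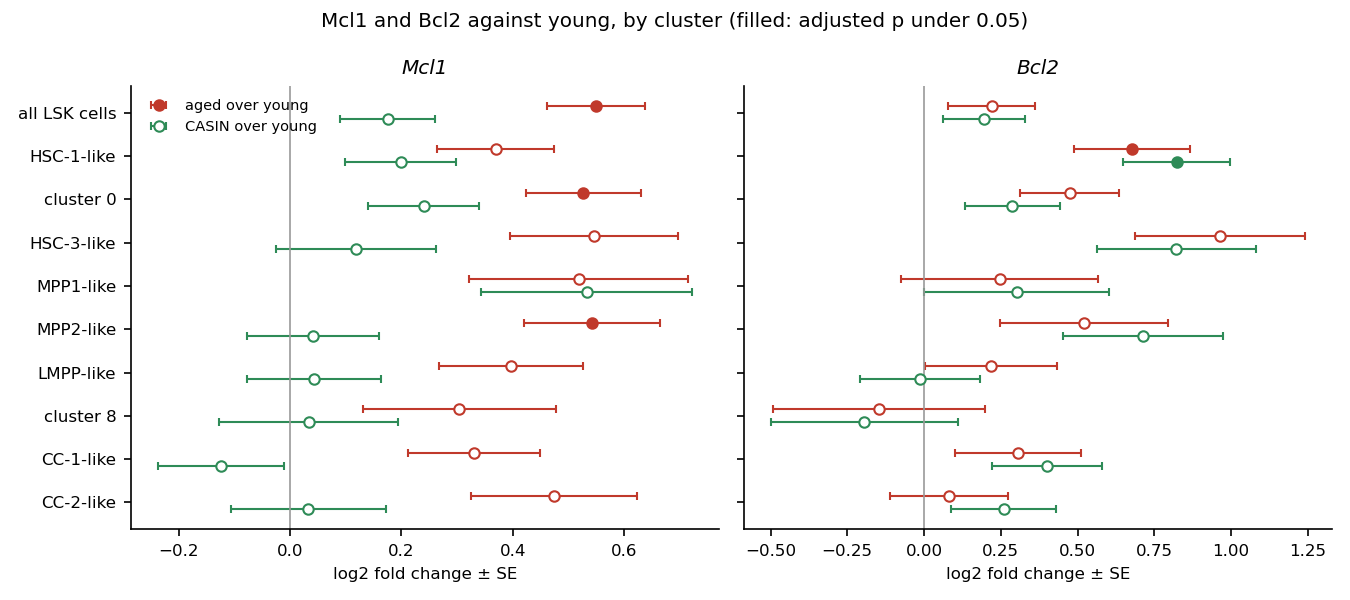
Log2 fold changes with standard errors (x axis) of Mcl1 and Bcl2 in aged over young and CASIN over young, in all LSK cells and in each of 9 clusters (y axis); a filled point has an adjusted p under 0.05. All 9 cluster values of Mcl1 in aged over young lie between 0.30 and 0.55. Bcl2 runs from -0.15 in cluster 8 to 0.96 in HSC-3-like cells, and was not called in either cluster.

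A list of 24 immediate early and heat shock genes such as Fos, Jun and Hspa1a, here called the handling list, also differed between aged and young samples. Whether handling moved these genes was not tested. Their summed level was 9059, 9198 and 3738 CPM in young 1, 2 and 3, 13040, 8591 and 6332 CPM in aged 1, 2 and 3, and 12330, 11728 and 4362 CPM in CASIN 1, 2 and 3, with all 24 detected in every library. In aged over young, 11 of 24 rose in all LSK cells, beside 3.59% of all genes (median log2 fold change 0.95, against 0.01 over all genes), and 10 of 22 tested rose in HSC-1-like cells, beside 3.01% of all genes. Nr4a1, an immediate early nuclear receptor, rose by a log2 fold change of 1.78 (SE 0.30, adjusted p = 0.017, edgeR) in all LSK cells. Whether the rise of these genes has a part in the Mcl1 levels was not tested.

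Other genes of the death pathway were also compared between the groups. Of all genes in all LSK cells, 4.1% were called in aged over young, 4.27% in CASIN over young and 0% in CASIN over aged. Of 12 further Bcl2 family genes tested in all LSK cells, none was called in any comparison by edgeR, and the same held for the 7 caspase inhibitors and death receptor brakes, the 6 mitochondrial pore partners and the 5 genes tested that act on MCL1 protein turnover. Among 15 genes of caspase activation, Endog, a mitochondrial nuclease, rose in aged over young (log2 fold change 0.64, SE 0.15, adjusted p = 0.043). Of 18 p53 targets tested in HSC-1-like cells, 3 rose in aged over young and 1 fell, beside 3.01% of all genes higher and 1.09% lower, with Btg2 (1.44) and Perp (1.27) higher and Gdf15 (-1.82) lower. Btg2 is also in the handling list.

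Of the 13 genes listed for cytokine signals to survival genes, which include inhibitors such as Socs2, 3 rose in aged over young in all LSK cells. Of all genes, 3.59% did. Among these 3 were Cish (log2 fold change 0.78) and the kinase gene Pim1 (0.47). Cish (0.74) also rose in CASIN over young, as did the FOXO gene Foxo1 (0.45). In HSC-1-like cells Pim1 (0.78) and Stat3 (0.56) rose and Socs2 fell by 1.05 on the log2 scale in aged over young. No gene of the 8 lists was called in CASIN over aged in all LSK, HSC-1-like or LMPP-like cells by edgeR.

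The widest differences of the family lay between the sequencing batches. All 10 members differed between batch 2 and batch 1 in all LSK cells by edgeR, beside 71.8% of all genes. The BH3-only genes went both ways, with 3 higher and 2 lower in batch 2, beside 34.3% of all genes higher and 37.6% lower. Bcl2l11 rose 15.0-fold (log2 fold change 3.90, SE 0.17, adjusted p = 1.9e-07, edgeR), from 20.9 to 39.6 CPM in the 5 samples of batch 1 to 342 to 509 CPM in the 4 samples of batch 2. Pmaip1 rose 11.8-fold (log2 fold change 3.57, SE 0.16), from 1.03 to 1.43 CPM in batch 1 to 12.2 to 18.5 CPM in batch 2. Neither gene had samples that overlapped between the batches.

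Bbc3 rose 3.54-fold (log2 fold change 1.82, SE 0.12), from 15.8 to 22.7 CPM in batch 1 to 50.2 to 70.6 CPM in batch 2. Bid ran the opposite way, from 16.6 to 22.0 CPM in batch 1 to 3.57 to 6.54 CPM in batch 2, and fell by 2.01 on the log2 scale (SE 0.17). Bad ran from 44.5 to 52.1 CPM in batch 1 to 15.5 to 18.3 CPM in batch 2 and fell by 1.61 (SE 0.095). The ranges of these 3 genes were also apart.

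Among the survival genes and effectors the batch differences were smaller. In batch 2, Bax fell by 0.77 (SE 0.059), Bcl2 fell by 0.74 (SE 0.12), Mcl1 fell by 0.36 (SE 0.074) and Bak1 fell by 0.28 (SE 0.11), all on the log2 scale, and Bcl2l1 rose by 0.37 (SE 0.13, adjusted p = 0.032). The calls of Bcl2l1 and Bak1 were the fragile ones: Bak1 was called in 1 of the 9 fits that left out a sample (without aged 1), and Bcl2l1 was not called without young 3 or CASIN 3. Bcl2l11, Pmaip1, Bbc3, Bid, Bad, Bax and Bcl2 were called in every fit that left out a sample. The handling list fell with the batch as well, 15 of its 24 genes being lower and 5 higher in batch 2, and the median mitochondrial share of kept cells was 2.65 to 3.49% in batch 1 and 5.03 to 6.997% in batch 2. Sequencing batch, mitochondrial share and the handling list ran together by sample in all LSK cells and cannot be told apart there. In LMPP-like cells the handling list of aged 2 (9549 CPM) lay within the range of batch 1 (9194 to 10604 CPM). Their parts in the member levels were not tested.

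The batch difference was also measured in both cell classes. Of 9 members tested in HSC-1-like cells 7 were called (66.2% of all genes), and of 10 in LMPP-like cells 8 were called (66.8% of all genes). Bcl2l11 rose 5.07-fold in HSC-1-like cells, from 5.35 to 13.7 CPM in batch 1 to 43.7 to 81.0 CPM in batch 2. In LMPP-like cells it rose 14.5-fold, from 42.4 to 74.7 CPM to 802 to 923 CPM. Mcl1 fell by 0.98 in HSC-1-like cells (SE 0.088) and differed by -0.02 in LMPP-like cells (SE 0.11, adjusted p = 0.855). Whether the batch difference itself differed between the classes was not tested.

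Within batches, no group difference of the members passed a test of batch 2 against batch 1 in all LSK, HSC-1-like or LMPP-like cells by edgeR. In cluster 0 that of Bcl2l11 passed, and the share of all genes that passed there is not given here. In cluster 0 Bcl2l11 was at 28.1, 31.7 and 12.5 CPM in young 1, young 2 and aged 1, and at 352, 370.3 and 428 CPM in young 3, aged 2 and aged 3. The aged sample was thus below both young samples in batch 1, and both aged samples were above the young sample in batch 2. The CASIN samples were at 17.3 and 20.002 CPM in batch 1 and at 234 CPM in batch 2, above aged 1 and below aged 2 and aged 3.

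Across the LSK subsets, Bcl2l11 had the largest ratio of LMPP-like over HSC-1-like cells of the 10 members. The levels by cluster are a description, since the clusters were made from the same cells, but the 10 members and 16 other family genes were left out of the genes used for the clustering. In LMPP-like cells Bcl2l11 was above every other tested cluster in 9 of 9 samples, with a mean of 55.6 CPM in batch 1 and 855 CPM in batch 2. The order then ran, in both batches, through cluster 8 (42.2 and 591 CPM), MPP1-like (26.2 and 575), CC-1-like (25.1 and 530.5), CC-2-like (24.6 and 409), cluster 0 (21.9 and 346) and HSC-3-like cells (16.1 and 329). HSC-1-like (10.3 and 61.2 CPM) and MPP2-like cells (9.92 and 120.1) were the lowest, and only their order changed between the batches.

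Not all neighbours in this order were apart. CC-1-like cells were above CC-2-like cells in 7 of 9 samples, MPP1-like cells above CC-1-like cells in 6 of 9 and MPP2-like cells above HSC-1-like cells in 6 of 9. The log2 ratio of LMPP-like over HSC-1-like cells for Bcl2l11 was 3.02 ± 0.87 (SD, n = 9 samples), from 1.84 to 4.18. The 3 genes whose pattern over the 81 sample by cluster values was most like that of Bcl2l11 were Flt3 (Pearson r = 0.90), Cd53 (0.88) and Arhgap30 (0.88). Flt3, a cytokine receptor gene of early lymphoid progenitors, is also among the markers that named the LMPP-like cluster, and the points share libraries and depth.

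Pmaip1 leaned the same way, with 9 of 9 samples higher in LMPP-like than in HSC-1-like cells. Its mean was 1.91 CPM in LMPP-like and 0.62 CPM in HSC-1-like cells of batch 1, a level that rests on few UMIs, and 29.0 against 3.45 CPM in batch 2. Bax was also higher in LMPP-like cells in 9 of 9 samples, by a log2 ratio of 0.16 ± 0.10 (SD). For Bbc3 the order followed the batch. LMPP-like cells were above HSC-1-like cells in the 5 samples of batch 1 and below them in the 4 samples of batch 2. The classes were less than 1 CPM apart in young 2 of batch 1 and in CASIN 3 of batch 2. Bbc3 was at 20.8 CPM in cluster 0 and 10.2 CPM in CC-1-like cells of batch 1, and cluster 0 was above both cycling clusters in 9 of 9 samples.

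Bcl2l1 ran against Bcl2l11. HSC-1-like cells, at 14.2 ± 4.77 CPM (SD, n = 9), were above LMPP-like cells, at 5.71 ± 2.00 CPM, in 9 of 9 samples (log2 ratio -1.18 ± 0.48), and MPP2-like cells, at 13.2 ± 4.99 CPM, were above LMPP-like cells in 9 of 9. HSC-1-like and MPP2-like cells were not apart, the former being higher in 5 of 9 samples. Bcl2 was highest in MPP1-like (72.0 ± 30.7 CPM) and MPP2-like cells (67.3 ± 28.9 CPM). MPP1-like cells had the lowest median depth of the 9 tested clusters, 6198 UMIs against 9459 in HSC-1-like cells, the next lowest. Their mitochondrial share was among the highest, at 3.31 to 8.05% by sample. The part of depth and mitochondrial share in the Bcl2 and Bcl2l11 levels of MPP1-like cells was not tested. MPP1-like and MPP2-like cells were each above cluster 0 and HSC-3-like cells in 9 of 9 samples, and MPP2-like cells were above MPP1-like cells in 6 of 9.

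**Figure D4:**
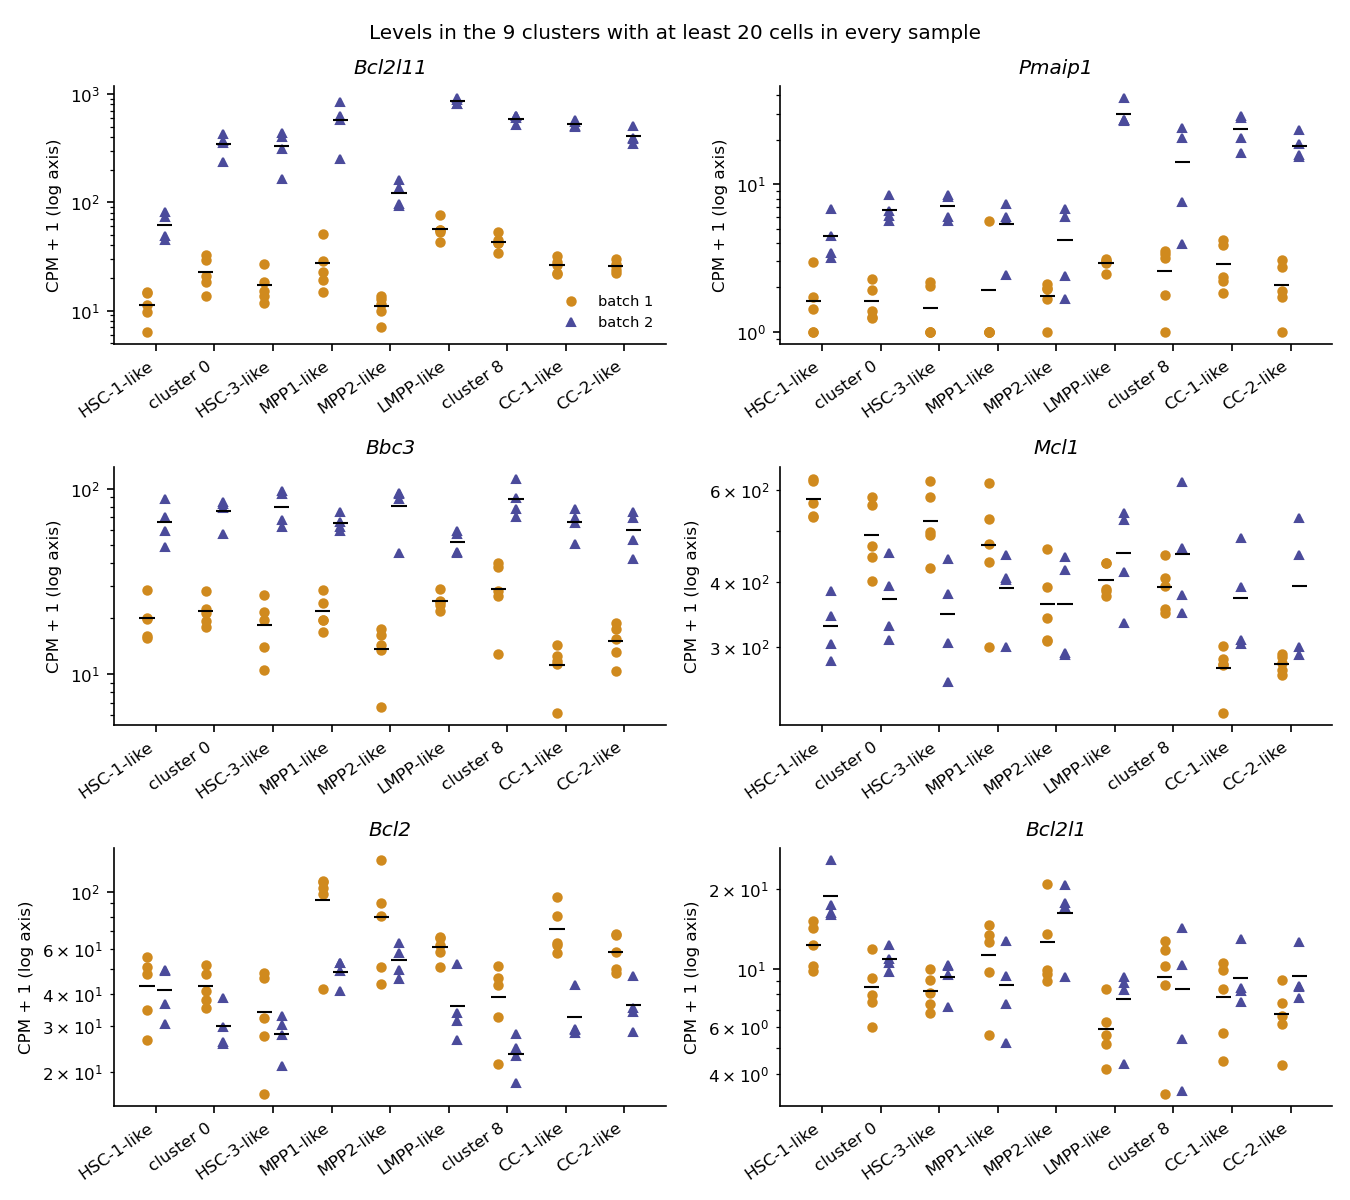
Level (y axis, CPM + 1, log axis) of 6 members in the 9 clusters with at least 20 cells in every sample (x axis), 1 point per sample, circles for batch 1 and triangles for batch 2, with a line at the mean of each batch. Bcl2l11 is highest in LMPP-like cells in both batches (means 55.6 and 855 CPM) and Bcl2l1 is the lowest of the 9 clusters there in batch 1 (4.92 CPM) and in batch 2 (6.69 CPM).

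Mcl1 changed its order between the batches. In batch 1 HSC-1-like cells had the highest mean of the 9 clusters (576 CPM) and LMPP-like cells had 402 CPM. In batch 2 HSC-1-like cells had the lowest mean (328 CPM) and LMPP-like cells the highest (453 CPM). Over the samples, HSC-1-like cells were above LMPP-like cells in 5 of 9, which were the 5 samples of batch 1. The handling list summed to 11150 to 17612 CPM in HSC-1-like cells of batch 1 and 2955 to 6516 CPM in batch 2, and to 9194 to 10604 and 3661 to 9549 CPM in LMPP-like cells.

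HSC-2-like cells, named by immediate early genes such as Fos and Jun, were too few for a test (9 cells in young 3) and had the highest Mcl1 level of the named clusters, 673.5 ± 96.0 CPM (SD, n = 9). They ranged from 555 to 831 CPM. The genes most like Mcl1 over the 81 values were Klf6 (Pearson r = 0.86), Srsf5 (0.84) and Jund (0.82), of which Klf6 and Jund are in the handling list and Jund is also among the HSC-2 markers. The remaining members had weaker likenesses, with Bad closest to the ribosomal protein gene Rps6 (0.73), Bcl2 to Atp2a2 (0.72), Pmaip1 to Cops4 (0.71), Bbc3 to Ypel3 (0.66), Bid to Ccl9 (0.64), Bcl2l1 to Selenom (0.60), and Bax and Bak1 to Mrpl19 and Csnk2a2 (0.55 each).

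The study's limit on mitochondrial UMIs removed 12674 barcodes that were within its other limits. Since the family acts at mitochondria, the members were compared between these barcodes and the kept cells of the same sample. Sums of nuclear genes were used, because the split itself uses the mitochondrial ones. The median barcode over the limit held 1533 to 3981 UMIs, against 9532 to 14622 in kept cells. By edgeR with the sample as a block, 9 of 10 members were called, beside 67.5% of all genes. How far the median of all genes lies from 0 depends on the scaling (log2 0.09 with TMM, 0.19 with DESeq2 size factors, 0.68 with library totals), so values are also given relative to this median.

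Bcl2 and Bcl2l11 were higher in the barcodes over the limit. Bcl2 was at 46.9 to 63.8 CPM of nuclear UMIs in kept cells and at 162 to 311 CPM in barcodes over the limit in batch 1, and at 32.9 to 46.0 and 77.6 to 105 CPM in batch 2. It was higher over the limit in 9 of 9 samples, by a log2 fold change of 1.02 (SE 0.12, adjusted p = 7.0e-07, edgeR), which is 0.93 above the median of all genes. Bcl2l11 was at 362 to 537 CPM in kept cells and 865 to 1199 CPM over the limit in batch 2, and was also higher in 9 of 9 samples. Its log2 fold change was 0.74 (SE 0.14) with TMM, 0.65 above the median. The counts of samples use CPM, which scale by library totals, and with these the median of all genes was itself 0.68 higher. They therefore do not set a sample against that median. In CASIN 1, Bcl2l11 went from 23.2 to 31.9 CPM, on 12 UMIs over the limit.

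Bad and Bax were lower. Bad was at 16.2 to 19.5 CPM in kept cells and 7.04 to 12.4 CPM over the limit in batch 2, and fell by 1.49 on the log2 scale (SE 0.12), with a value of -1.58 relative to the median of all genes. Bax was at 108 to 119 and 47.8 to 93.6 CPM in batch 1, and at 69.8 to 74.6 and 53.6 to 69.0 CPM in batch 2. It fell by 1.03 (SE 0.12), with a value of -1.12 relative to the median. Both were lower over the limit in 9 of 9 samples, but Bax in young 3 only went from 69.8 to 69.0 CPM.

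Pmaip1 (-0.94, SE 0.14), Bbc3 (-0.73, SE 0.12), Bid (-0.72, SE 0.15), Bak1 (-0.48, SE 0.12) and Mcl1 (-0.33, SE 0.10) were called lower with TMM. In batch 1 alone, Mcl1 (-0.14), Bbc3 (-0.54) and Pmaip1 (-1.52, SE 1.11) were not called. Pmaip1 had at most 1 UMI per sample over the limit there. In batch 2 alone, Mcl1, Bbc3 and Pmaip1 were each called lower. The shares of all genes called within each batch are not given here. The direction of Mcl1 and Bak1 depends on the scaling: with library totals their log2 fold changes were 0.31 and 0.10, while relative to the median of all genes they stayed at -0.42 to -0.37 for Mcl1 with TMM and library totals and at -0.57 and -0.58 for Bak1. With library totals Bbc3 (-0.14) and Bid (-0.15) were not called. Bcl2l1 was not called with TMM (0.04, SE 0.15) and was called with library totals (0.60). The 5 tested genes of MCL1 turnover were mostly higher (4 higher, 1 lower), 6 of 7 caspase inhibitors and death receptor brakes were higher and 5 of 6 mitochondrial pore partners were lower, beside 35.9% of all genes higher and 31.7% lower. Of the 24 handling genes 13 were lower and 1 higher.

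**Figure D5:**
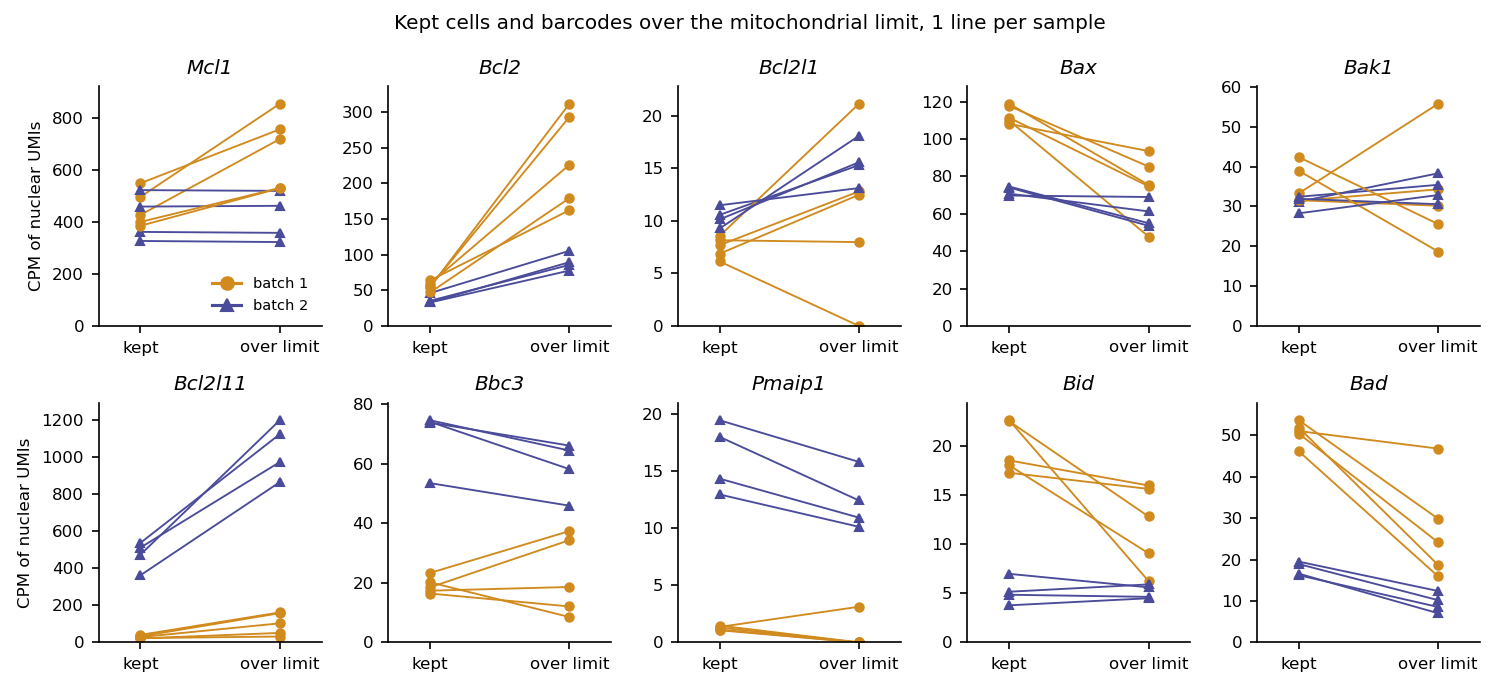
Level of each of the 10 genes (y axis, CPM of nuclear UMIs, linear from 0) in kept cells and in barcodes over the limit of 10% mitochondrial UMIs (x axis), 1 line per sample, circles for batch 1 and triangles for batch 2. The 9 lines of Bcl2 and of Bcl2l11 rise, and those of Bad and Bax fall.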

How the data were processed

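The 9 deposited matrices hold raw UMI counts per gene and barcode, which the authors made with Cell Ranger 3.1.0 on the mouse genome mm10. Labels do not give the number of mice per library, so p-values measure the spread between these samples. The cell limits were the study's: at most 10% mitochondrial UMIs, at most 6000 genes, 1000 to 40000 UMIs, and a residual from the fit of genes on UMIs of at most 0.4. Kept cells were integrated with Seurat 5.3.0 and sctransform 0.4.2 on 3000 selected features, less those among them that were on a list of 26 family genes. They were clustered at resolution 0.4. A cluster was named "-like" from marker lists. Counts were summed per sample and cluster, and clusters with at least 20 cells in every sample were tested.

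Sums were tested in R 4.3.3 with edgeR 4.0.16 (quasi-likelihood, TMM, filterByExpr, group and batch as terms, all 9 samples), with Benjamini-Hochberg adjustment over all genes and a threshold of 0.05. The SE is the size of the log2 fold change over the square root of F. DESeq2 1.42.0 was an alternative. Scrublet (scanpy 1.11.5) marked 67 cells (0.423%) as doublets, too few for a working call, so leaving out the top 5% of its scores was added after seeing the data. On simulated counts of the aged over young comparison, 25.4% of genes changed by a log2 of 0.5 and 74.6% of those changed by 1 were recovered in all LSK cells (13596 genes), and 13.4% and 73.1% in HSC-1-like cells (10180 genes).

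The 10 members, the lists and the tests were chosen with earlier results of these data known. Named genes were the members, up to 3 genes per list with the largest change among those past the threshold and of 1 direction in both batches, and the 3 genes of at least 20 CPM most like each member. The batch comparison and the motifs were chosen after the levels were seen. CITE-seq libraries were not analysed here. Some genes that the rule names are not reported here.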

Additional observations from a re-analysis of the deposited data

Results flagged for a closer look

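Some differences between the batches passed a test of the difference itself by edgeR with Benjamini-Hochberg adjustment. The shares of all genes that passed these tests are not given here, so the calls are not read as a result about the members. The aged over young difference of Bcl2l11 in cluster 0 was 1.43 higher in batch 2 than in batch 1 on the log2 scale (-1.19 in batch 1, 0.24 in batch 2, adjusted p = 0.00995). Its CASIN over aged difference in cluster 0 was lower in batch 2 by a log2 value of -1.30 (0.52 in batch 1, -0.78 in batch 2, adjusted p = 0.043). Both values share the aged samples, and batch 1 holds a single aged sample. Between barcodes over the mitochondrial limit and kept cells, Bcl2 was higher by 1.31 in batch 1 and 0.75 in batch 2, a difference of -0.56 (adjusted p = 0.015). Bax was lower there, at -1.33 in batch 1 and -0.82 in batch 2, a difference of 0.51 (adjusted p = 0.047), which sits at the threshold. The batch 1 values rest on 42 to 97 Bcl2 UMIs and 12 to 30 Bax UMIs per sample over the limit. In batch 2 these were 470 to 1298 and 363 to 661 UMIs.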

How the results depend on the processing

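In aged over young, the 1 member called in all LSK cells (Mcl1) became 0 with no batch term, with a replicate block and with only the 2 groups compared, and ran from 0 to 1 when a sample was left out. In CASIN over young there, 0 became 1 with only the 2 groups compared, and ran from 0 to 1. In HSC-1-like cells, the 1 call of aged over young became 0 with the DESeq2 Wald test, no batch term, only the 2 groups compared, a mitochondrial limit of 5%, cells thinned to 4000 UMIs, the top 5% of doublet scores left out and library totals only, became 2 at clustering resolution 0.8 and with family genes kept in the clustering, and ran from 0 to 1. The 1 call of CASIN over young became 0 with no batch term and a mitochondrial limit of 5%, became 3 in both broader clusterings, and ran from 0 to 1. In the other clusters the calls ran from 0 to 3 in aged over young (2 with all samples), from 0 to 3 in CASIN over aged and from 0 to 2 in CASIN over young. Calls of pathway list genes were summed over the 3 comparisons in all LSK, HSC-1-like and LMPP-like cells, so a gene can count more than once. These calls numbered 59, against 103 with no filter on low counts, 0 with no batch term and 38 with a mitochondrial limit of 5%. They ran from 26 (without young 1) to 70 (without aged 1). Members with 1 order of LMPP-like and HSC-1-like cells in all samples numbered 4 (Bcl2l11, Pmaip1, Bax and Bcl2l1). With thinned cells and at resolution 0.8 the number was 1, which was Bcl2l11 in both. With library totals only, Mcl1 and Bak1 turned to 0.31 and 0.10 in barcodes over the mitochondrial limit. The cause of these changes was not tested, and the shares of all genes called in the altered fits are not given here.

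Whether replicate numbers pair the samples was not tested. Deviations of same-numbered samples from their group means correlated from 0.79 to 0.93 within a batch and at -0.68 across batches. In batch 1, young 1 correlated at 0.87 with CASIN 1 and 0.74 with CASIN 2, and young 2 at 0.88 with CASIN 2 and 0.81 with CASIN 1. In batch 2, aged 3 correlated at 0.83 with young 3, and aged 2 at 0.69. Aged 1 went the other way with the young samples, at 0.79 with young 1 and 0.82 with young 2. With the CASIN samples it did not, at 0.86 with CASIN 1 and 0.80 with CASIN 2. With group and batch both taken out, same-numbered samples correlated from -0.53 to 0.29 within a batch and at 0.31 and 0.15 across batches. With the replicate block, Mcl1 in all LSK cells had a log2 fold change of 0.48 (adjusted p = 0.069, edgeR), and Bcl2 in HSC-1-like cells one of 0.86 (adjusted p = 0.015). Depth limited Pmaip1 and Bcl2l1 in single clusters.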
